A study of Mus musculus with 4 samples.

Results

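The genes of prostaglandin handling and inducible nitric oxide synthase were examined in mouse chondrocytes, 10 genes in all: Pla2g4a, Ptgs1, Ptgs2, Ptges, Ptges2, Ptges3, Ptger2, Ptger4, Hpgd and Nos2. They were chosen by name, and every probe on the array that is listed under a RefSeq transcript of one of them was used, which gave 15 probes in 25 spots, out of 37042 genes or unnamed transcripts, 55619 probes and 59305 transcript spots. The cells were primary chondrocytes of C57BL/6J mice at 6 days of age, kept for 3 days in medium with 10 ng/mL TNF-α (TNF below) or without it. Control cells came from Rela fl/fl mice, which carry floxed alleles of Rela and no Cre. The cells labelled cKO came from Prrx1-Cre;Rela fl/fl littermates, in which Cre is driven by the Prrx1 promoter, active in limb mesenchyme, and the floxed alleles are the same. Each of the 4 combinations of genotype and TNF was measured on 1 array, and how many mice gave the cells of each culture is not given in the sources used here. With 1 array per combination no test was run, and none of the values below has a replicate check.

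Prostaglandins are lipid signals made in steps. A cytosolic phospholipase A2, encoded by Pla2g4a, frees arachidonic acid from membranes. The cyclooxygenases Cox-1 and Cox-2, encoded by Ptgs1 and Ptgs2, turn it into prostaglandin H2, and prostaglandin E synthases turn that into prostaglandin E2, which acts through receptors such as EP2 and EP4 and is degraded by the product of Hpgd. In cartilage, prostaglandin E2 and the nitric oxide made by the product of Nos2 are known as mediators of inflammation, and Ptgs2, Ptges and Nos2 are widely described as genes that inflammatory cytokines induce. TNF acts in large part through NF-κB, of which Rela is a subunit.

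Signals are given as multiples of the 75th percentile of the same array, which lay between 589 and 633 intensity units, and changes as log2 differences of these signals. A difference was counted as past the limit at a size of 1 on the log2 scale. The technical spread of such a log2 difference, for 1 spot and taken from probes spotted 10 times, was 0.14. The limit of 2 technical spreads used below (0.28) was also applied to the difference of the TNF changes between genotypes, whose own spread is larger. It covers spot-to-spot error on 1 array and not the spread between cultures or mice. A probe that the scanner software did not mark as well above background has no measured level, and against it a difference is only a bound. Between 50.9% and 58.1% of probes were well above background on an array. Bright patches, small areas in which many spots were brighter on 1 array than on the other 3, held between 1.04% and 10.7% of the spots of an array, and 7 of the 15 probes had a spot in one on at least 1 array. These cases are named beside their values.

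Checks of the samples bear on every comparison between genotypes. The Rela signal was 28.4 and 34.9 in control cells without and with TNF, and 34.0 and 40.2 in cKO-labelled cells. The deletion was thus not visible in the Rela signal, and where the probe lies relative to the deleted exons is not given in the sources used here. Xist, made from the inactive X chromosome, was detected in control cells but not on either cKO-labelled array, while the Y-linked Ddx3y was higher on the latter by 1.49 without and 1.70 with TNF on the log2 scale. Ddx3y was also well above background on the control arrays, at 1.31 and 1.30, as was the Y-linked Eif2s3y, at 1.78 and 1.84. Genotype and sex can therefore not be told apart. All 12 chondrocyte markers were well above background on every array, Col2a1 and Acan included. Their summed signal was 1733 and 1647 in control cells without and with TNF, and 1367 and 1397 in cKO-labelled cells. Most of that sum came from Col2a1 and Comp, and the median marker signal was 95.4 and 77.8 in control cells and 47.4 and 46.7 in cKO-labelled cells. Between genotypes, 9 of the 12 were lower in cKO-labelled cells past 2 technical spreads without TNF (median -0.56) and 7 with TNF (median -0.38). Of all genes, 12.6% and 12.3% were lower by this without and with TNF. Matn1, a cartilage matrix protein, was past the limit of 1 in both treatments, at -1.86 and -1.19. For 8 fibroblast markers the corresponding sums were 908, 960, 787 and 816. Between genotypes, 3 of the 8 were lower in cKO-labelled cells past 2 technical spreads without TNF and 4 with TNF. The shares of all genes lower by this were again 12.6% and 12.3%. With TNF, 4 were higher and 1 lower past 2 technical spreads in control cells, and 3 higher and 0 lower in cKO-labelled cells. Of all genes, 11.4% were higher and 12.2% lower by this in control cells, and 13.8% and 15.9% in cKO-labelled cells. Among the fibroblast markers, Thy1 was past the limit between genotypes without TNF (-1.59) and in the difference of the TNF changes (1.31). Of 10 macrophage and leukocyte markers measured, 7 or 8 were well above background on an array, with summed signals between 38.1 and 46.6, most of it Itgam. Between genotypes without TNF, Lyz2 differed by -2.11, Tyrobp by a bound of -1.61 and Adgre1 by 2.87. With TNF, Lyz2 differed by -1.42 in control cells and Adgre1 by -3.48 in cKO-labelled cells. The Lyz2 spot was in a patch of the control array without TNF and the Adgre1 spot in one of the cKO-labelled array without TNF. Ptprc, which defines leukocytes, was not well above background on any array. Of 5 endothelial markers, 2 or 3 were well above background on an array, with summed signals between 17.9 and 20.7. Nearly all of that sum was Kdr, at 17.5 to 20.5. Cdh5 and Tek were well above background on no array. Emcn was well above background only in cKO-labelled cells without TNF, with its spot in a patch, at bounds of 1.33 between genotypes and -2.31 with TNF. In RNA of a whole culture, fewer cells of a type and less RNA per cell cannot be told apart. The part of these differences in the results below was not tested.

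Promoter sequences are shown for Ptgs2, Ptges and Hpgd, because these genes had a probe whose TNF difference was beyond 2 technical spreads in the same direction in both genotypes. They are the 250 bases upstream of the start in RefSeq, build GRCm38.p6, and capitals mark matches to a loose form of the site bound by NF-κB, GGG and CC with any 5 bases between them. Ptgs2 lies on the plus strand (chr1:150099781-150100030), Ptges on the minus strand (chr2:30903298-30903547) and Hpgd on the plus strand (chr8:56294302-56294551). The Hpgd stretch has no match and is shown for contrast.
Ptgs2: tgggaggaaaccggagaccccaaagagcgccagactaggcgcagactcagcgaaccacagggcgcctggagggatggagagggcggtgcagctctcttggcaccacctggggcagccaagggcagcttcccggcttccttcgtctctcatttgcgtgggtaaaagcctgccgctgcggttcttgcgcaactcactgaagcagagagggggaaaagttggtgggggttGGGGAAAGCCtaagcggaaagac
Ptges: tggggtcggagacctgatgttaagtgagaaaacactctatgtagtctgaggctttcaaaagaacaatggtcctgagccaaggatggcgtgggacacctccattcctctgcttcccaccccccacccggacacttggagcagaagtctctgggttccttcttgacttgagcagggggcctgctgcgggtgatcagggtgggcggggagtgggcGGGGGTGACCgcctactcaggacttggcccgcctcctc
Hpgd: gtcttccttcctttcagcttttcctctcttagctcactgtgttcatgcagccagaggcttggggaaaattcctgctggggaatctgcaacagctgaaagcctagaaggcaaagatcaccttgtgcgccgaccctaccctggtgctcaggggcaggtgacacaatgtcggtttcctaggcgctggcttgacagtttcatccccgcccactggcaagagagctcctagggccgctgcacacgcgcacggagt

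The motif search covered 300 bases, from 250 before to 50 after the start, on both strands, in the 9 of 10 genes that the promoter table holds; Nos2 is not among them. In Ptgs2 the match was GGGGAAAGCC, from 23 to 14 bases before the start, and in Ptges it was GGGGGTGACC, from 38 to 29 bases before it. The promoters of Ptgs1, Ptges3 and Ptger4 also held matches. This motif was frequent, with a match in 50.8% of 32851 promoters. The stricter NF-κB consensus, every match of which is also a match to the loose form, was found in 4.51% of these promoters and in no window of the 9 genes. CACGTG, the E-box core, was found in Ptgs2 and Ptges2, against 7.15% of all promoters. TATAAA was found in Hpgd, from 5 to 10 bases after the start, and in Pla2g4a, on the other strand at positions -200 to -195 from the start, against 13.6%. TGANTCA, the AP-1 motif, was in none, against 7.81%. A match is a description of the sequence and does not show that a factor binds there.

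The array values of the 10 genes fell into few patterns. Ptgs2 was higher with TNF in both genotypes and higher in cKO-labelled cells in both treatments. Hpgd was lower with TNF in both genotypes. The TNF and genotype differences of the brighter Ptges probe and of the Nos2 probe were all within 0.14. Ptger2 and Ptger4 were near or below the detection limit on most arrays. In all, 8 of the 10 genes and 13 of the 15 probes were well above background on all 4 arrays.

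**Figure D1:**
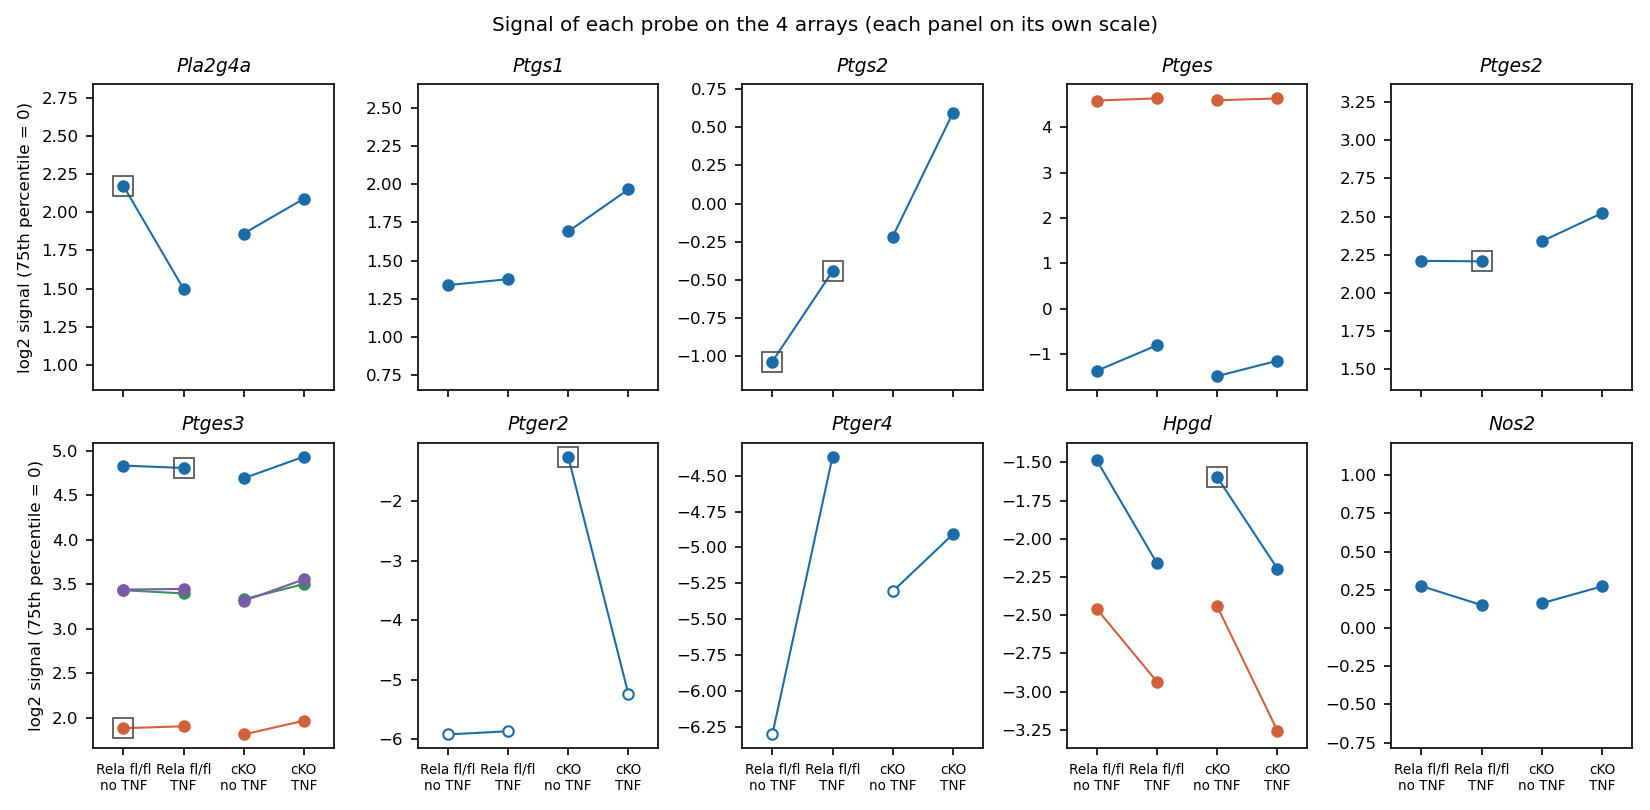
Log2 signal of each of the 15 probes on the 4 arrays, relative to the array's 75th percentile, with a scale of its own for each gene; control cells are labelled Rela fl/fl, colours are probes and lines join the arrays of a genotype. Filled symbols are well above background, open symbols are readings that are not, and squares mark a spot in a bright patch; Ptgs2 is lowest in control cells without TNF (signal 0.488) and highest in cKO-labelled cells with TNF (1.51).

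The release of arachidonic acid was represented by Pla2g4a, the calcium-dependent cytosolic phospholipase A2. Its single spot gave 4.51 and 2.83 in control cells without and with TNF, and 3.63 and 4.25 in cKO-labelled cells. The signal with TNF was thus lower than without it in control cells, by a log2 difference of -0.68, and higher in cKO-labelled cells, by 0.23. The TNF changes differed by 0.90 between genotypes, which lay at percentile 98.2 of the genes measured on every array. The spot lay in a bright patch of the control array without TNF, where its signal was highest. Between genotypes, the cKO-labelled arrays differed by -0.31 without TNF and 0.59 with it. Without spots in patches, the TNF change in control cells, the genotype difference without TNF and the difference of the changes have no value for this gene.

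Ptgs1 encodes Cox-1, the cyclooxygenase that most tissues express without stimulation. Its signal was 2.53 and 2.60 in control cells without and with TNF, and 3.23 and 3.91 in cKO-labelled cells, with no spot in a patch. The TNF difference was 0.04 in control cells and 0.28 in cKO-labelled cells, just under 2 technical spreads. Against control cells, the cKO-labelled arrays were higher by 0.35 without TNF and by 0.59 with it. Both cKO-labelled arrays were thus above both control arrays.

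Ptgs2 encodes Cox-2, the inducible cyclooxygenase. It had 1 probe, spotted 10 times on each array, so that its reading error could be seen directly. In control cells without TNF its spots lay between 0.452 and 0.542 around a mean of 0.488, over the 9 spots left after 1 outlier. With TNF they lay between 0.688 and 0.804 around 0.735. In cKO-labelled cells the spots lay between 0.767 and 0.950 around 0.861 without TNF. They lay between 1.37 and 1.65 around 1.51 with TNF. The 4 arrays thus ran in the order control without TNF, control with TNF, cKO without TNF and cKO with TNF. Among neighbours in this order, the spot ranges overlapped only between control with TNF and cKO without TNF.

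**Figure D2:**
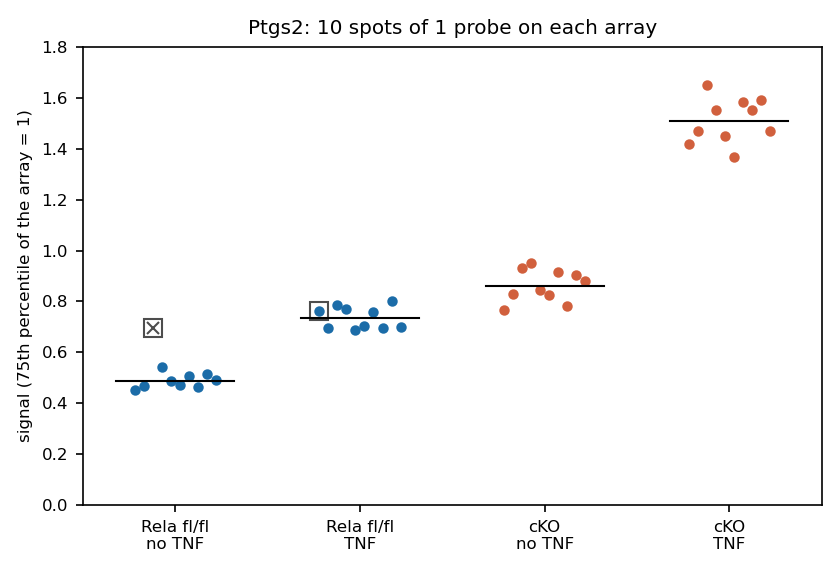
Signal of the 10 spots of the Ptgs2 probe on each of the 4 arrays, in multiples of the array's 75th percentile, with lines at the means; a cross is the spot left out as an outlier and squares mark spots in bright patches. The spots of the cKO-labelled array with TNF, between 1.37 and 1.65, lie above every kept spot of the other 3 arrays.

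With TNF, the Ptgs2 signal was higher by 0.59 on the log2 scale in control cells and by 0.81 in cKO-labelled cells, at percentiles 95.6 and 98.3 of all genes. Taken spot by spot, these differences ran from 0.50 to 0.75 and from 0.71 to 0.99. Between genotypes, the cKO-labelled arrays were higher by 0.82 without TNF and by 1.04 with it, the latter a 2.05-fold difference. Spot by spot, the genotype difference ran from 0.75 to 0.85 without TNF and from 0.89 to 1.16 with it, so that the limit of 1 fell within the range of the spots. The TNF changes of the genotypes differed by 0.22, at percentile 78.2 of the genes measured on every array. One spot was in a patch of the control array with TNF, and without it the 9 other spots gave a genotype difference of 0.96 to 1.16 with TNF.

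Ptges encodes the microsomal prostaglandin E synthase that is described as the inducible one. Its brighter probe gave 24.2 and 25.0 in control cells without and with TNF, and 24.3 and 24.9 in cKO-labelled cells. All of its differences were within 0.05 of 0. The dimmer probe of the same transcript gave 0.386 and 0.570 in control cells, and 0.356 and 0.450 in cKO-labelled cells. This probe was higher with TNF by 0.56 and 0.34, and differed by -0.12 without and -0.34 with TNF between cKO-labelled and control cells. The probes therefore disagreed on whether Ptges differed with TNF, and neither had a spot in a patch.

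The other prostaglandin E synthases differed little. Ptges2, a membrane-associated enzyme, gave 4.63 and 4.62 in control cells without and with TNF, and 5.06 and 5.74 in cKO-labelled cells. Its genotype difference was 0.13 without TNF and 0.32 with it, and its spot lay in a patch of the control array with TNF. Ptges3, the cytosolic enzyme also known as the Hsp90 co-chaperone p23, had 4 probes. The brightest gave 28.5 and 27.9 in control cells without and with TNF, and 25.8 and 30.5 in cKO-labelled cells, and it had a spot in a patch of the control array with TNF. Its TNF difference was -0.03 in control cells and 0.24 in cKO-labelled cells. One other probe had its spot in a patch of the control array without TNF. In the other 3 probes these differences ran from -0.04 to 0.02 and from 0.15 to 0.24. The 4 Ptges3 probes thus ran the same way with TNF in cKO-labelled cells, none of them beyond 2 technical spreads.

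Ptger2 and Ptger4 encode EP2 and EP4, the prostaglandin E2 receptors that raise cyclic AMP. Ptger2 was well above background only in cKO-labelled cells without TNF, at 0.419, and its readings elsewhere were 0.017 and 0.017 in control cells without and with TNF and 0.027 in cKO-labelled cells with TNF. Against the lowest signal well above background on the other array, the reading was at least 7.94-fold higher than in control cells without TNF and at least 15.7-fold higher than in cKO-labelled cells with TNF. The single Ptger2 spot lay in a bright patch of that array, in which 9.42% of spots lay, and without spots in patches the gene has no value in either comparison. With normexp background correction the log2 bounds were 1.47 between genotypes and -1.51 with TNF, in place of 2.99 and -3.97. Ptger4 was well above background only with TNF, in both genotypes, at 0.048 in control cells and 0.033 in cKO-labelled cells. The readings without TNF, 0.013 and 0.025, were below detection. In cKO-labelled cells Ptger4 was at least 1.29-fold higher with TNF, a log2 bound of 0.37 that was 0.0033 with normexp, while in control cells the lowest signal well above background on the array without TNF, 0.053, was above the reading with TNF, so that no bound could be given. With TNF the cKO-labelled array differed from the control array by -0.54, and by -0.25 with normexp, which is within 2 technical spreads. Ptger4 was read so close to background that its order across arrays is uncertain.

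Hpgd encodes 15-hydroxyprostaglandin dehydrogenase, which inactivates prostaglandin E2. The brighter of its 2 probes gave 0.357 and 0.224 in control cells without and with TNF, and 0.331 and 0.218 in cKO-labelled cells. The other probe gave 0.182 and 0.131 in control cells, and 0.184 and 0.105 in cKO-labelled cells. Both arrays with TNF were below both arrays without TNF in each probe. The TNF difference of the brighter probe was -0.67 in control cells and -0.60 in cKO-labelled cells, and that of the other probe -0.48 and -0.81. With normexp the brighter probe gave -0.39 in control cells. The brighter probe had its spot in a patch of the cKO-labelled array without TNF, and the other probe had none on any array. Genotype differences were small in the brighter probe, -0.11 without and -0.03 with TNF, and 0.02 and -0.32 in the other.

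**Figure D3:**
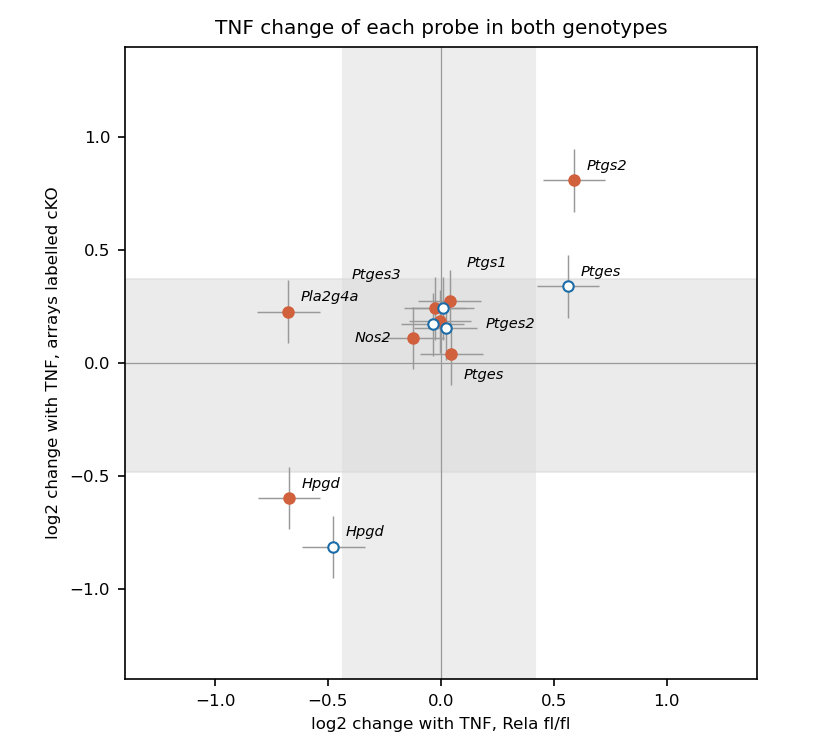
Log2 TNF difference of each probe in control cells (horizontal axis) and in cKO-labelled cells (vertical axis), for probes with a value in both. Filled orange points stand for their gene, open blue points are further probes, bars are the technical spread of 0.14 and grey bands hold the central 90% of 20482 genes well above background on all 4 arrays; Ptgs2 lies at 0.59 and 0.81, and the brighter Hpgd probe at -0.67 and -0.60.

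Nos2, the inducible nitric oxide synthase, had 1 probe in 2 spots. Its signal was 1.21 and 1.11 in control cells without and with TNF, and 1.12 and 1.21 in cKO-labelled cells. The spots ran from 1.13 to 1.30 and from 1.02 to 1.20 in control cells, and from 1.06 to 1.18 and from 1.17 to 1.25 in cKO-labelled cells. The spot ranges of the arrays thus overlapped or adjoined, and no spot was in a patch. The TNF difference was -0.12 in control cells and 0.11 in cKO-labelled cells, and the genotype difference was -0.11 without and 0.12 with TNF. Taken spot by spot, the TNF difference was -0.14 and -0.11 in control cells and 0.08 and 0.14 in cKO-labelled cells, so that the spots agreed in direction. With no scaling between arrays the latter difference was 0.0080 on average. The TNF changes differed by 0.23 between genotypes. Nos2 was well above background on every array, and each of its TNF and genotype differences lay within the central 90% of all genes.

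**Figure D4:**
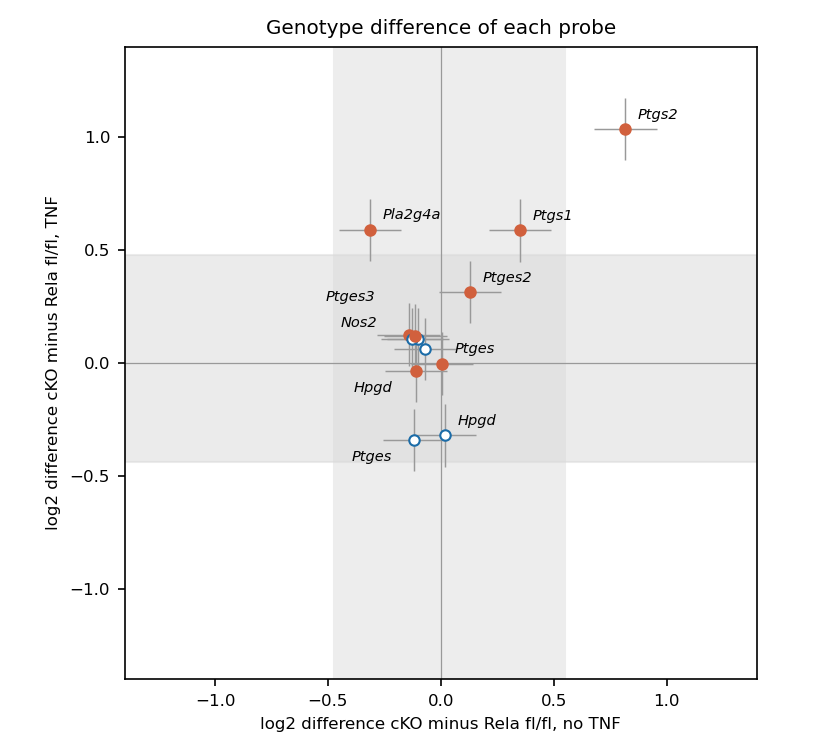
Log2 difference between the cKO-labelled arrays and the control arrays without TNF (horizontal axis) and with TNF (vertical axis), for probes with a value in both. Filled orange points stand for their gene, open blue points are further probes, bars are the technical spread and grey bands hold the central 90% of 20482 genes; Ptgs2 lies at 0.82 and 1.04.

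Counted over the 10 genes, few differences were past the limit. With TNF in control cells, 0 of 9 genes with a reading well above background were past it, against 6.66% of the 23408 genes tested (2.39% higher and 4.27% lower). In cKO-labelled cells, 1 of 10 was lower with TNF, Ptger2, against 5.48% of all genes (1.02% higher and 4.46% lower). Between genotypes without TNF, 1 of 9 was higher in cKO-labelled cells, again Ptger2, against 7.91% (3.51% higher and 4.4% lower). Between genotypes with TNF, 1 of 9 was higher, Ptgs2, against 4.37% (1.16% higher and 3.21% lower). No difference of the TNF changes was past the limit among 8 genes, against 3.8% of all genes (1.54% higher and 2.26% lower). The median TNF difference over the genes with a value was -0.01 in control cells and 0.21 in cKO-labelled cells, where the medians over all genes were 0.01 and 0.06. The median genotype difference was 0.01 without TNF and 0.13 with it, beside 0.01 and 0.06 over all genes.

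At 2 technical spreads, more genes were counted, and so were more of all genes. With TNF in control cells 3 of 9 genes were past this smaller limit (Ptgs2 higher, Pla2g4a and Hpgd lower), against 23.7% of all genes. In cKO-labelled cells 4 of 10 were past it with TNF (Ptgs2 and Ptger4 higher, Ptger2 and Hpgd lower), against 29.6%. Between genotypes without TNF, 4 of 9 were past it (Ptgs1, Ptgs2 and Ptger2 higher, Pla2g4a lower), and with TNF 5 of 9 (Pla2g4a, Ptgs1, Ptgs2 and Ptges2 higher, Ptger4 lower), against 29.3% in each case. Pla2g4a was the 1 gene of 8 whose TNF changes differed between genotypes by more than this, against 29.1%. Except between genotypes with TNF, each of these Pla2g4a differences used its spot in a bright patch. So did those of Ptger2, that of Ptges2, and that of Hpgd in cKO-labelled cells. Counted by the brightest probe of each gene, Ptgs2 and Hpgd were the 2 genes past this limit in the same direction with TNF in both genotypes. The dimmer Ptges probe, not counted here, was past it at 0.56 and 0.34.

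The remaining prostanoid genes, other phospholipases, synthases, receptors, transporters and reductases, are given by their counts. Of 38 such genes on the array, 25 were well above background on all 4 arrays and 7 on none. With TNF in control cells 0 of 29 were past the limit of 1, with a median of 0.05. In cKO-labelled cells 2 of 30 were higher with TNF and 0 lower, with a median of 0.19. Past this limit were 6.66% and 5.48% of all genes in these comparisons, and 7.91% and 4.37% between genotypes without and with TNF. The 2 higher genes were Ptgir, the prostacyclin receptor, with a difference of at least 1.44, and Pla2g4c, a calcium-independent phospholipase A2, with at least 3.24. Ptgir was well above background only with TNF, in both genotypes, at 0.046 in control cells and 0.073 in cKO-labelled cells. In control cells the lowest signal well above background without TNF, 0.053, was above the Ptgir reading with TNF, so no bound could be given. Pla2g4c was well above background only in cKO-labelled cells with TNF, at 0.245, and its single spot there lay in a bright patch. Between genotypes, Ptgds, the lipocalin-type prostaglandin D synthase, was lower without TNF, with a difference of -1.07 (0.391 in control cells and 0.186 in cKO-labelled cells). With TNF, Tbxas1, the thromboxane synthase, was well above background in control cells alone and at least 1.16 lower in cKO-labelled cells, and Pla2g4c at least 2.73 higher. The median genotype differences of this list were -0.06 without TNF and 0.05 with it. At 2 technical spreads, 3 genes of the list were higher and 7 lower with TNF in control cells (23.7% of all genes either way), and 10 higher and 3 lower in cKO-labelled cells (29.6%). Between genotypes, 5 of 26 were higher and 6 lower without TNF, and 9 of 31 higher and 5 lower with TNF (29.3% of all genes in each case). The 11 genes of the leukotriene and lipoxygenase branch, which also starts from arachidonic acid, had 0 differences past the limit in any comparison. The medians of the TNF and genotype differences lay between -0.05 and 0.07, and the median difference of the TNF changes was 0.14.

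Of the 23 genes of nitric oxide and arginine metabolism, 16 were well above background on all 4 arrays and 6 on none. With TNF in control cells 0 of 16 were past the limit, with a median of 0.04. In cKO-labelled cells 1 of 17 was lower, with a median of 0.02. This was Nos1, the neuronal nitric oxide synthase, well above background only in cKO-labelled cells without TNF, where its spot lay in a patch. Its difference was a bound of -1.16. Between genotypes 0 of 17 were past the limit without TNF (median 0.11) and 1 of 16 with TNF (median 0.17). The shares of all genes were 6.66%, 5.48%, 7.91% and 4.37% in the same order. Gchfr, the feedback regulator of the enzyme that starts synthesis of the cofactor tetrahydrobiopterin, gave 2.03 and 1.78 in control cells without and with TNF and 3.43 and 3.84 in cKO-labelled cells. It was higher in cKO-labelled cells by 0.75 without TNF and by 1.11 with it.

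A list of 22 widely used NF-κB targets gave the TNF differences of other genes on the same arrays. With TNF in control cells 11 of 20 were past the limit, all higher, with a median of 1.05. In cKO-labelled cells 6 of 19 were higher and 0 lower, with a median of 0.60. Between genotypes with TNF, 8 of 20 were lower in cKO-labelled cells and 0 higher, with a median of -0.84. Without TNF 3 of 18 were lower and 1 higher, with a median of -0.12. Of all genes, 2.39% were higher and 4.27% lower past the limit with TNF in control cells, and 1.02% and 4.46% in cKO-labelled cells. Between genotypes, 3.21% of all genes were lower and 1.16% higher with TNF, and 4.4% lower and 3.51% higher without it. Ccl2, a monocyte chemokine, was higher with TNF by 5.02 in control cells and by 3.17 in cKO-labelled cells, with 1 of its 10 spots in a patch on 2 arrays. Mmp3, the matrix metalloproteinase stromelysin, was higher by 4.64 and 2.56. The chemokines Ccl5 and Cxcl1 were higher by 3.39 and 3.00 in control cells, and by 2.98 and 1.48 in cKO-labelled cells. Il6 was at least 2.88 higher in control cells, and in cKO-labelled cells its reading with TNF, 0.027, was at the lowest signal well above background. Saa3, an acute-phase protein, was well above background only in control cells with TNF, where it was at least 7.48 higher than without TNF. With TNF, 17 of the 20 targets had a genotype difference below 0 and 3 above it, the latter Birc3 (0.03), Cxcl10 (0.17) and Tnfaip2 (0.22), which were picked out after their values were seen. The corresponding difference of Ptgs2 was 1.04.

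**Figure D5:**
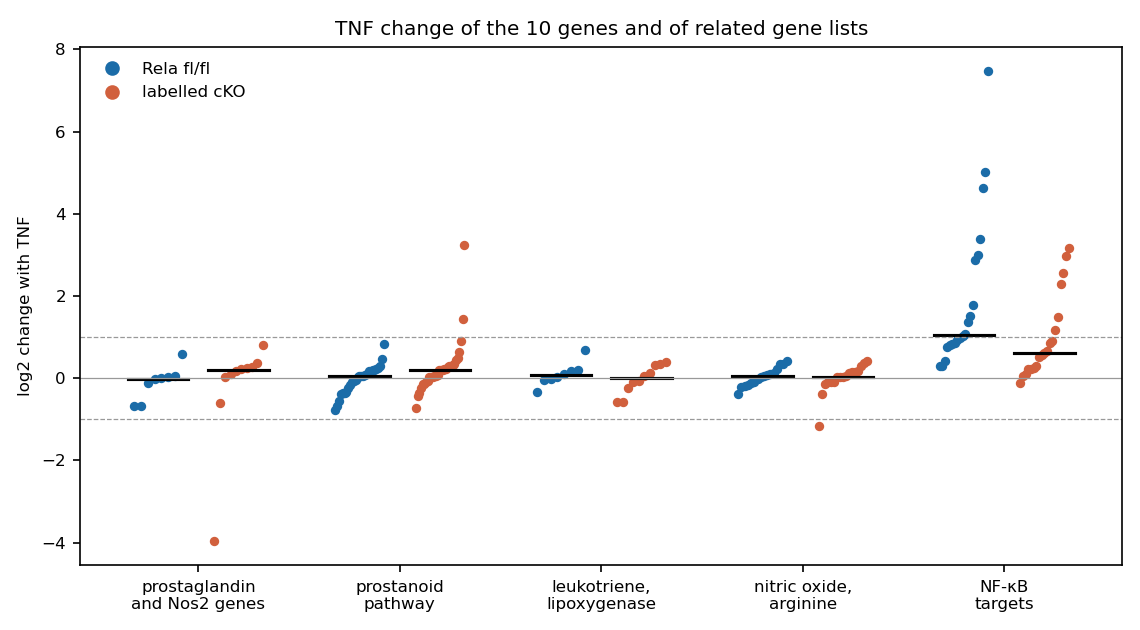
Log2 TNF difference in control cells and in cKO-labelled cells for the 10 genes and for the related gene lists, 1 point per gene in order of size, bounds included, with the median of each list as a thick line and the limit of 1 dashed. The NF-κB targets have medians of 1.05 and 0.60. Medians of the prostaglandin and Nos2 genes are -0.01 over the 8 with a value in control cells and 0.21 over 10 in cKO-labelled cells.

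The genes whose pattern over the 4 arrays was nearest to that of Ptgs2 were found by the distance between log2 values centred on their mean. They were Plaur, the urokinase receptor (distance 0.10), Ttc9 (0.12), Cd44, the hyaluronan receptor (0.18), Bdnf, a neurotrophin (0.22), and the pseudogene Hmga2-ps1 (0.23). Plaur was higher with TNF by 0.49 in control cells and by 0.91 in cKO-labelled cells. Cd44 was higher by 0.47 and 1.03. Between genotypes with TNF, Plaur was higher in cKO-labelled cells by 1.14 and Cd44 by 1.18. Of 9665 genes compared, 11 lay within a distance of 0.3 of Ptgs2. The flat patterns of the brighter Ptges probe and of Nos2 were common, with 6982 and 6672 of 9664 genes within that distance. The 5 nearest were Yju2, Suclg1, Exo5, Kri1 and Cnot11 for Ptges and Eif1, Eif3g, Cox14, Aars and Guk1 for Nos2.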

How the data were processed

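Total RNA of primary chondrocytes was labelled with Cy3 and hybridised to 1-colour Agilent mouse arrays, 4 arrays on 1 slide with 1 scan time. The authors deposited spot intensity values from Agilent Feature Extraction 10.10.1.1, processed by its background subtraction, with marks for outliers and for signals well above background. A second deposited table, used as an alternative, equals this intensity times 1 factor per array (1.77 to 1.83), and how the factors were chosen is not given in the sources used here.

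Each array holds 62976 spots, of which 3671 are controls and were left out. Spots marked as outliers were also left out. The log2 intensity was taken relative to the array's 75th percentile, repeated spots were averaged, and for genes with several probes the brightest on average was taken. Symbols came from RefSeq (GRCm38.p6) by accession, which matched 20431 of 20809 NM accessions. The array files name the assembly mm9, and coordinates are given for promoters only, on GRCm38.p6. Readings not well above background were replaced by their array's lowest reading that was where they lay below it and kept at their own value otherwise, which makes a difference against them a bound. Differences were counted past a log2 size of 1. A spot was called bright on 1 array when it exceeded all 3 others at least 2-fold (with a floor of -4.5 on the log2 scale), and in a patch when at least 3 other such spots lay within 5 rows and 2 columns. With 1 array per combination no test was run, an additive fit of genotype and TNF was not made and no p-values were computed, and the number of arrays limits the precision. Samples were grouped by their titles.

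All 10 genes were named with every probe. From each list, up to 6 genes past a log2 difference of 1 were named by size, as were the 5 genes nearest to Ptgs2, Ptges and Nos2 among those with a symbol, well above background and outside patches. The genes, lists and rules were chosen with earlier results of these data known. The alternatives were in scaling, background, filter, limit, probe choice and patches. The procedure was tested on simulated data. Python 3.11.15 with numpy 2.4.6, pandas 2.3.3 and matplotlib 3.10.9, and R 4.3.3 with limma 3.58.1 for quantile and normexp alternatives (offset 50), were used.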

Additional observations from a re-analysis of the deposited data

Results flagged for a closer look

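Among the 10 genes and the genes named from the prostanoid, nitric oxide and NF-κB lists, cell type markers left aside, 6 with a reading well above background on every array had TNF differences of opposite sign in the genotypes. Other genes of the lists also did, and the share of all genes that did is not given here. Over all genes the median TNF difference was 0.01 in control cells and 0.06 in cKO-labelled cells. The difference between genotypes was not tested. Each value below is the TNF change in cKO-labelled cells minus that in control cells, on the log2 scale. It was 0.90 for Pla2g4a, whose single spot lay in a bright patch of the control array without TNF. It was 0.23 for Nos2, 0.19 for Ptges2 and 0.27 for Ptges3, in each of which the TNF change in control cells was smaller than the technical spread of 0.14. That change turned positive for Ptges2 with no scaling (0.0067) and with normexp (0.0097), and for Ptges3 it was above 0 in 2 of the 4 probes. With no scaling the differences of the TNF changes were 0.12 for Nos2, 0.075 for Ptges2 and 0.16 for Ptges3, and the median over all genes was -0.06 in place of 0.05. It was 0.36 for Gchfr (-0.19 in control cells and 0.16 in cKO-labelled cells) and 0.67 for Ptgds (-0.33 and 0.33), both with no spot in a patch.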

How the results depend on the processing

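The count of genes past the limit between genotypes with TNF was 0 with no scaling, with the authors' scaled values, with normexp background correction and at a 3-fold limit, where Ptgs2 was at 0.97, 0.98 and 0.93, or under the larger limit. The counts with TNF in cKO-labelled cells and between genotypes without TNF were 0 when a reading well above background was required on both arrays and when patches were left out, since both rest on the Ptger2 spot. With no filter and no raised value, 1 gene (Ptger4) was past the limit with TNF in control cells and 2 in the difference of the TNF changes. At a 1.5-fold limit the counts were 3, 3, 2, 3 and 1 in the order TNF in control cells, TNF in cKO-labelled cells, genotype without TNF, genotype with TNF and difference of the TNF changes, and at 2 technical spreads, chosen after seeing the data, 3, 4, 4, 5 and 1. Of 335 other values, 319 moved by less than the technical spread and 16 by more. Values as large as the technical spread kept their sign. Smaller ones did not all do so, as Ptges with TNF in cKO-labelled cells, 0.04 and -0.10 with quantile normalization. For a gene well above background on all 4 arrays the filter settings return the same value. Averaging over probes cannot move a gene with 1 probe. The Ptgs2 difference ran from 0.48 to 0.63 with TNF in control cells, from 0.70 to 0.81 in cKO-labelled cells, and from 0.67 to 0.87 and 0.93 to 1.04 between genotypes without and with TNF. The median TNF difference of all genes in cKO-labelled cells was 0.06, but -0.04 with no scaling and -0.05 with the authors' values, so that differences of about 0.1 there, those of Nos2 and the brighter Ptges probe included, have no settled direction. Over all genes, 560 and 999, 255 and 1110, 852 and 1068, 285 and 787, and 316 and 463 were higher and lower past the limit in the same order. These counts were 356 and 647, 60 and 494, 440 and 608, 98 and 400, and 164 and 211 with normexp, 1346 and 2361, 1352 and 2322, 2312 and 1916, 2118 and 1538, and 3546 and 2972 with no filter, and 110 and 133, 199 and 386, 241 and 196, 234 and 233, and 86 and 152 without patches. With both arrays well above background the first 4 were 208 and 320, 100 and 482, 352 and 390, and 166 and 303. They were 1017 and 1510, 919 and 2103, 1708 and 1577, 1088 and 1409, and 841 and 1125 at 1.5-fold and 381 and 715, 83 and 644, 460 and 780, 83 and 514, and 151 and 197 at 3-fold. With quantile normalization 399 and 949 genes were higher and lower with TNF in cKO-labelled cells, a larger share higher. No paired analysis was made, as each combination had 1 array and the labels number no replicates. Leaving out an array would remove a combination, so no array was left out. The normexp correction started from the median spot signal. Ptger2 and Ptger4 are limited by signal over background.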

Other observations

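Some prostanoid and nitric oxide genes outside the 10 had differences of the same direction in both genotypes or in both treatments, without passing the limit of 1. They were chosen after their values were seen, and none had a spot in a patch. Tbxa2r, the thromboxane receptor, gave 0.166 and 0.096 in control cells without and with TNF, and 0.165 and 0.099 in cKO-labelled cells, log2 differences of -0.78 and -0.73. Slco2a1, a prostaglandin transporter, gave 2.49 and 4.43 in control cells, and 3.76 and 5.32 in cKO-labelled cells, differences of 0.83 and 0.50. Ptgis, the prostacyclin synthase, gave 8.23 and 6.27, and 6.87 and 5.12, differences of -0.39 and -0.42. Gch1, the enzyme that starts tetrahydrobiopterin synthesis, gave 2.29 and 2.93, and 2.85 and 3.67, a difference of 0.36 in both genotypes. Ptger1, the EP1 receptor, was higher in cKO-labelled cells by 0.84 without TNF and by 0.75 with it. Whether any of these differences exceeds the spread between cultures was not tested.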
